A study of Trichoderma reesei with 9 samples.

Results

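Cytosolic ribosomal protein genes were taken from the deposited gene table of Trichoderma reesei, a filamentous fungus used for cellulase production, by the words ribosomal protein or ribosomal subunit protein in the gene description. Descriptions that also mention mitochondria, methyltransferase, kinase, biogenesis, acetyl or hydroxylase were left out. This gave 49 of 10348 genes, 27 of the large subunit (its stalk proteins included) and 22 of the small subunit. The genes were selected by description and not by their values. As 7046 genes of the table are described only as a predicted protein, the set is incomplete by construction.

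The ribosome makes all cellular proteins. Its small subunit reads the messenger RNA, its large subunit forms the peptide bond, and a flexible stalk on the large subunit recruits the factors that drive elongation. Each subunit carries its proteins in roughly equal numbers of copies, and in yeast the genes for them are among the most transcribed of growing cells and are regulated together with growth rate and nutrient supply.

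Gene-level RNA-seq counts came from mycelia grown for 96 h on Avicel, a microcrystalline cellulose that induces cellulases. The 3 groups, of 3 libraries each, were Rut-C30, Rut-C30 lacking vps13 (Δvps13) and Rut-C30 lacking vps21 (Δvps21). The labels call Rut-C30 the wild type, but it is itself a hyperproducing mutant, so all groups share its mutations. In yeast, Vps13 transfers lipids at membrane contacts and Vps21 is an endosomal GTPase, and the series asks how the transcriptome differs when either gene is deleted. The sources used here do not say how each deletion was made, how many transformants stand behind a group or whether replicates were grown apart. A p value below therefore measures no more than the spread between these samples, which can be technical.

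Each library held 12127372 to 13493219 counts. A rab5-like gene (TRIREDRAFT_123015) had 1147 to 1740 counts in the wild-type and Δvps13 libraries and 2 counts in each Δvps21 library, while no gene was named or described as vps13, so the label Δvps13 could not be checked in this way. Replicates 1 and 3 of Δvps13 lay furthest from each other, with a chi-square of 351 per degree of freedom over genes against 13.7 to 33.7 between wild-type libraries and at most 58.8 between Δvps21 libraries. It was 204 between Δvps13 replicates 1 and 2 and 155 between replicates 2 and 3, so replicate 1 stood at least as far off over all genes as replicate 3. For the ribosomal protein genes it was replicate 3 that stood apart after scaling (below), so the Δvps13 value of each of them that is described is also given without replicate 3, a choice made after the data were seen, and the count of calls without each of the 9 libraries. That library stood nearest the wild type in their summed level, so leaving it out lowers their median log2 by construction. Their median log2 in Δvps13 was -0.54 with all libraries, -0.71 without replicate 3 and -0.41 without replicate 1. The adjusted p values without replicate 3 carry this choice. The 5 markers of mycelium on cellulose summed to 16157 to 20095 CPM (scaled as below) for the wild type, 29451 to 64598 CPM for Δvps13 and 50836 to 63070 CPM for Δvps21, with the hydrophobin gene hfb1 at 0 in 7 of 9 libraries. Of the 4 of them that were tested, cel7a and cel7b rose in both strains and cel5a in Δvps21. TRIREDRAFT_39942 overlapped the wild type with a log2 of -0.22 in Δvps13 and -0.28 in Δvps21. It is described as a beta-1,3-endoglucanase, which is not a cellulase, and entered the list by the word endoglucanase. The gene cel7a, which makes up most of the sum, held 1.09 to 1.27% of all counts for the wild type, 2.49 to 3.40% for Δvps13 and 4.28 to 4.74% for Δvps21. Of 6 markers of conidia or sporulation, none was at 0 and their summed level was 3664 to 4483 CPM for the wild type, 4370, 10968 and 2074 CPM for Δvps13 and 9091 to 13459 CPM for Δvps21. Of the 6, 2 were called higher in Δvps13 and 1 in Δvps21, where 5.65% and 16.7% of all tested genes were. Most of the sum came from hfb2 and hfb3, which passed in neither strain by edgeR's quasi-likelihood test (adjusted p = 0.0632 and 0.0682 in Δvps21). In Δvps13, TRIREDRAFT_106538 was called but overlapped the wild type, and TRIREDRAFT_67272 lay below the wild type (log2 -0.67, not called). The other Δvps13 call, TRIREDRAFT_112554, did not overlap (log2 0.72, adjusted p = 0.0423 by the same test). The Δvps21 call was TRIREDRAFT_106538, a hydrophobin gene (log2 7.26, adjusted p = 0.000772). Its level was 7.01, 6.42 and 7.83 CPM in the wild type and 1031, 1216 and 1027 CPM in Δvps21. CPM are counts scaled to a common library size by TMM, a method that aligns the bulk of genes between libraries. In bulk RNA, fewer cells of a type and less RNA per cell cannot be told apart.

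Transcripts for ribosomal proteins made up a smaller share of the counts in every deletion library than in any wild-type library. They held 2.88, 2.51 and 2.30% of the counts in wild-type replicates 1 to 3. The shares were 1.57, 1.11 and 1.32% in Δvps13 and 1.40, 1.39 and 1.26% in Δvps21, and neither deletion group overlapped the wild type. The mean was 2.56% ± 0.29 (SD, n = 3) for the wild type, 1.33% ± 0.23 for Δvps13 and 1.35% ± 0.08 for Δvps21. The 95% Wilson interval of each share was at most ± 0.009 percentage points wide, which covers counting error only. These shares depend on no scaling factor, but they do depend on the rest of the library: the 10 most abundant genes took 15.2 to 16.5% of the counts for the wild type, 16.5 to 23.5% for Δvps13 and 18.1 to 19.9% for Δvps21. With the 50 most abundant other genes left out of the total, the shares were 4.25, 3.75 and 3.53% for the wild type, 2.24, 1.80 and 2.41% for Δvps13 and 2.12, 2.21 and 1.97% for Δvps21. The summed mycelium markers, mostly cel7a, were higher in every deletion library than in any wild-type library, the summed conidial markers were so in every Δvps21 library, and the part of either in these shares was not tested.

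**Figure D1:**
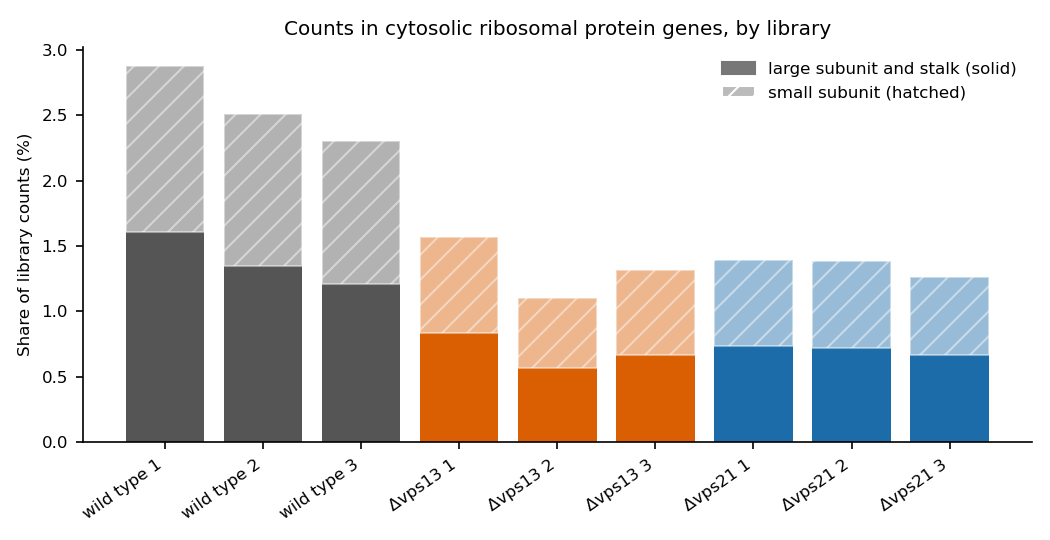
Share of each library's counts (%) in the 49 ribosomal protein genes, 1 bar per library, with the large subunit and stalk solid and the small subunit hatched. The wild-type bars reach 2.30 to 2.88% and the bars of both deletion strains 1.11 to 1.57%.

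In both subunits the share was lower. Large-subunit genes held 1.61, 1.35 and 1.21% of the counts for the wild type, 0.835, 0.571 and 0.670% for Δvps13 and 0.735, 0.724 and 0.665% for Δvps21. Small-subunit genes held 1.27, 1.16 and 1.09% for the wild type, 0.732, 0.535 and 0.651% for Δvps13 and 0.661, 0.663 and 0.595% for Δvps21. The ratio of large-subunit to small-subunit counts was 1.27, 1.17 and 1.11 for the wild type, 1.14, 1.07 and 1.03 for Δvps13 and 1.11, 1.09 and 1.12 for Δvps21, so that the groups overlapped. Without the single gene for L41 the ratios were 1.10, 1.04 and 1.02 for the wild type, 1.10, 1.03 and 0.978 for Δvps13 and 1.06, 1.03 and 1.07 for Δvps21, and all groups overlapped.

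TMM scaling changed the order of the Δvps13 libraries. The summed level of the 49 genes was 24088, 22456 and 21502 CPM for the wild type and 12992, 14250 and 13432 CPM for Δvps21. In Δvps13 it was 12921 and 13162 CPM in replicates 1 and 2 and 18904 CPM in replicate 3. Replicate 3 therefore stood between its group-mates and the wild type on this scale, although its unscaled share lay between those of replicates 1 and 2. Its TMM factor was 0.699, the lowest of the 9 libraries, against 1.21 and 0.841 for the other Δvps13 libraries and 0.938 to 1.19 elsewhere. Relative to the wild-type mean, the median gene stood at a log2 of -0.75, -0.65 and -0.22 in Δvps13 and at -0.70, -0.61 and -0.62 in Δvps21. In the libraries of Δvps13, 46, 49 and 30 of the 49 genes lay below every wild-type library, and 48, 46 and 48 did so in Δvps21. Split by subunit, Δvps13 replicate 3 had 20 of 27 large-subunit genes and 10 of 22 small-subunit genes below every wild-type library.

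**Figure D2:**
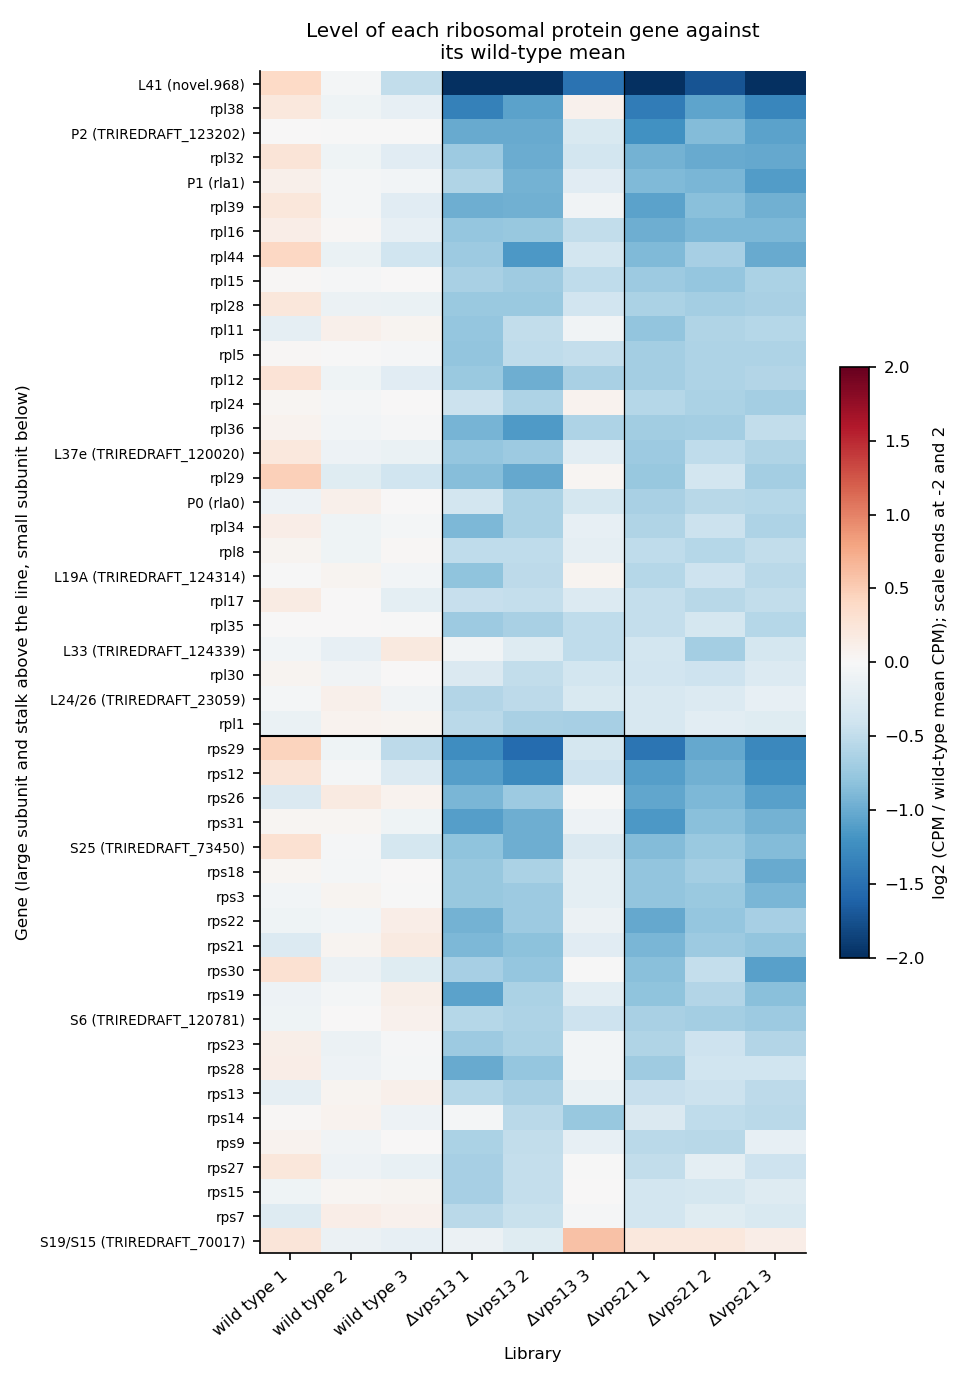
Level of 48 of the 49 genes in each of the 9 libraries, as log2 of its CPM over its wild-type mean (colour scale ends at -2 and 2), with the large subunit and stalk above the line. Blue fills most of both deletion strains and is paler in Δvps13 replicate 3, whose median is -0.22. The gene for L41 in the top row is the darkest, and TRIREDRAFT_70017 lies above its wild-type mean in every Δvps21 library.

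The transcripts of these genes were abundant in all groups. By mean FPKM, counts per length and depth, 47 of the 49 ranked among the 500 most abundant of all genes for the wild type, 43 for Δvps13 and 43 for Δvps21, and 11, 2 and 2 among the first 100. For the wild type the highest were rps30 (mean FPKM 3286), the L41 gene (2607), rps26 (1961), rps28 (1622) and rps29 (1574). In both deletion strains rps30, rps26 and rps28 held the first 3 places, and the L41 gene stood at 645 FPKM in 12th place of the 49 for Δvps13 and at 655 FPKM in 8th place for Δvps21. Apart from L41 these encode small proteins of the small subunit. S26 and S28 line the channel by which messenger RNA leaves the subunit, and S29 is a zinc-binding protein of its head. At the other end, averaged over the 9 libraries, rps14 stood at 232 FPKM, TRIREDRAFT_70017 (described as S19/S15) at 119 and TRIREDRAFT_124339 (described as L33) at 27.6. The descriptions of the last pair give no compartment, and whether they belong to the cytosolic ribosome was not tested. The genes are short, 171 to 1348 bp with a median of 658 bp against 1299 bp over the whole table, and lie on 24 of the 64 scaffolds. None overlaps another gene of the table, which matters because no step that marks strand is named in the labels.

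L41 was the outstanding member in both deletion strains. It is the smallest ribosomal protein, a short basic peptide that lies at the interface of the subunits and bridges them. Its gene (NW_006711167.1, 213797 to 214514, + strand, in the coordinates of the deposited table) is an added gene model without a locus tag, known only by its match to the L41 protein family. It had 28041, 18800 and 12710 counts for the wild type, 4188, 2661 and 4117 for Δvps13 and 4137, 5044 and 3550 for Δvps21. On the scaled level this was 1772, 1312 and 957 CPM in the wild type, 267, 235 and 486 CPM in Δvps13 and 294, 407 and 301 CPM in Δvps21, and neither deletion group reached the lowest wild-type library. The level was 4.09-fold lower in Δvps13 (log2 ± SE -2.03 ± 0.35, adjusted p = 0.00728) and 4.03-fold lower in Δvps21 (log2 -2.01 ± 0.35, adjusted p = 0.00164). The wild-type libraries themselves spread over 0.89 on the log2 scale, the widest range of the 49 genes within the wild type after that of rps29 (0.96). L41 took 7.36, 5.84 and 4.45% of all ribosomal protein counts for the wild type, 2.07, 1.78 and 2.57% for Δvps13 and 2.26, 2.86 and 2.24% for Δvps21, so it also fell relative to the other ribosomal protein genes, whichever scaling is used. Its call was kept in 9 of 9 fits with 1 library left out and under 11 of 11 other alternatives in each comparison, with log2 values of -2.41 to -1.77 (Δvps13) and -2.18 to -1.75 (Δvps21) over the left-out libraries. Without Δvps13 replicate 3 it was log2 -2.41 ± 0.32, adjusted p = 0.000181.

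**Figure D3:**
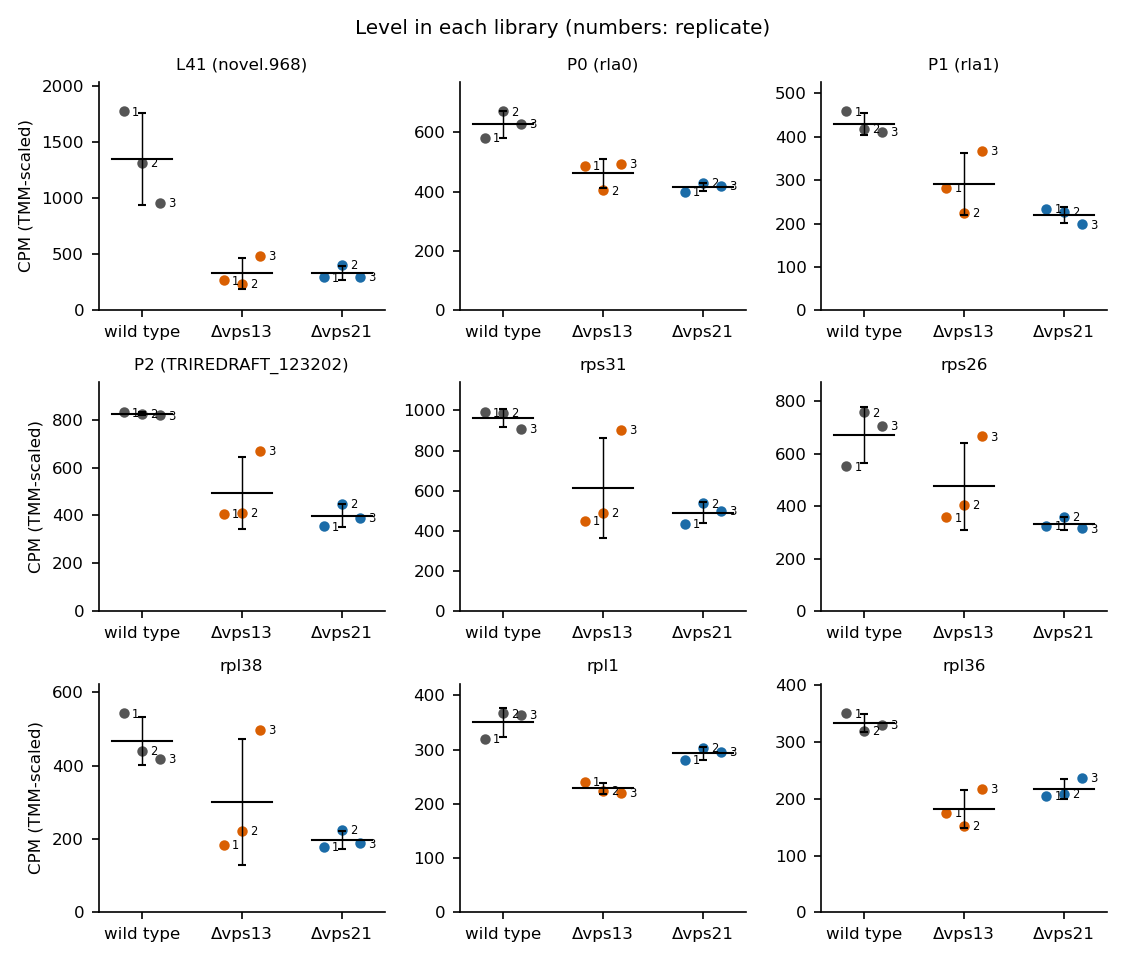
CPM (TMM-scaled) of 9 ribosomal protein genes in each library, with points numbered by replicate, bars at the group mean and whiskers of 1 SD (n = 3). L41, P2 and L36 are lower in all 6 deletion libraries, and replicate 3 of Δvps13 stands above its group-mates for S31, S26 and L38 but not for L1.

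In Δvps13, 3 of the 49 genes fell (L41, L36 and L12, all of the large subunit) and none rose by edgeR's quasi-likelihood test at an adjusted p of 0.05. Over all 8906 tested genes 4.75% were called lower and 5.65% higher, so the 3 genes (6.12%) are near the background share. The median log2 over the 49 genes was -0.54, against 0.04 over all tested genes and 0.27 over the 1324 other genes of 100 CPM or more, and 48 of the 49 log2 values were below 0. In 28 of the 49 genes (19 large, 9 small) all 3 Δvps13 libraries lay below all 3 wild-type libraries, where 16.0% of all tested genes did so. Without Δvps13 replicate 3, 36 of the 49 genes were called lower (21 large, 15 small) with a median log2 of -0.71, and 17.6% of all genes were then called lower. Scaled by library totals alone, 40 were called lower against 12.2% of all genes, in a scaling that moved the median log2 of all genes by -0.30. Without Δvps13 replicate 1, 4 were called lower (L41, L36, L12 and L1) with a median log2 of -0.41, and 4.64% of all genes were. With any wild-type library or Δvps13 replicate 2 left out, 1 gene was called, against backgrounds of 1.46, 0.956, 1.38 and 2.32%, and 2 were called without Δvps21 replicate 1, 2 or 3, against 3.08, 3.33 and 2.95%. The number called in Δvps13 thus ran from 1 to 36 over the 9 fits with 1 library left out, and L41 was the single gene called in all of them.

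rpl36 and rpl12 were the other genes called in Δvps13. L12 sits at the base of the stalk. The level of rpl36 was 351, 320.1 and 329.9 CPM in the wild type, 176, 152 and 218 CPM in Δvps13 and 206, 208 and 237 CPM in Δvps21. It was 1.83-fold lower in Δvps13 (log2 -0.87 ± 0.20, adjusted p = 0.0226) and 1.54-fold lower in Δvps21 (log2 -0.62 ± 0.20, adjusted p = 0.0362), and neither deletion group overlapped the wild type. The level of rpl12 was 346, 269.6 and 245 CPM in the wild type, 171, 146 and 183 CPM in Δvps13 and 178, 188 and 190.4 CPM in Δvps21. It was 1.72-fold lower in Δvps13 (log2 -0.78 ± 0.20, adjusted p = 0.0353) and 1.55-fold lower in Δvps21 (log2 -0.63 ± 0.20, adjusted p = 0.0351), again with no overlap. When 1 library was left out, the Δvps13 call was kept in 5 of 9 fits for rpl36 and in 2 of 9 for rpl12. Without Δvps13 replicate 3, rpl36 (log2 -1.01 ± 0.20, adjusted p = 0.00261) and rpl12 (log2 -0.84 ± 0.22, adjusted p = 0.00933) were among the called genes.

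In Δvps21, 26 of the 49 genes fell (15 of 27 large, 11 of 22 small) and none rose by edgeR's quasi-likelihood test, where 15.8% of all tested genes were called lower and 16.7% higher. The median log2 was -0.63 (-0.63 for the large subunit, -0.71 for the small), against -0.02 over all tested genes and 0.06 over the other genes of 100 CPM or more. In 46 of the 49 genes (26 large, 20 small) the Δvps21 libraries lay below all wild-type libraries without overlap, against 31.6% of all tested genes. The 3 genes whose groups overlapped were rpl29, rps7 and TRIREDRAFT_70017. The count fell to 10, 8 and 11 without wild-type replicates 1, 2 and 3 and to 5, 11 and 5 without Δvps21 replicates 1, 2 and 3, with backgrounds of 10.4, 9.63, 10.3, 8.91, 12.2 and 8.45%. It was 35 without Δvps13 replicate 1 or replicate 3, whose spread enters the shared variance estimate, with backgrounds of 20.9 and 22.6%, and 26 without Δvps13 replicate 2, with a background of 15.7%. The genes for L41, L16, P1 and L32 were called lower in each of the 9 fits with 1 library left out. The other calls were kept in fewer of these fits, 8 for P2 and rps12, 6 for rpl38 and rps29, and 5 for rps26 and rps3. They were kept in 4 for rps18, rps21, rpl39, rpl44 and the genes for S25 and S6. They were kept in 3 for rps31, rps22, rps19, rla0, rpl5, rpl12, rpl15, rpl24, rpl28 and rpl36.

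**Figure D4:**
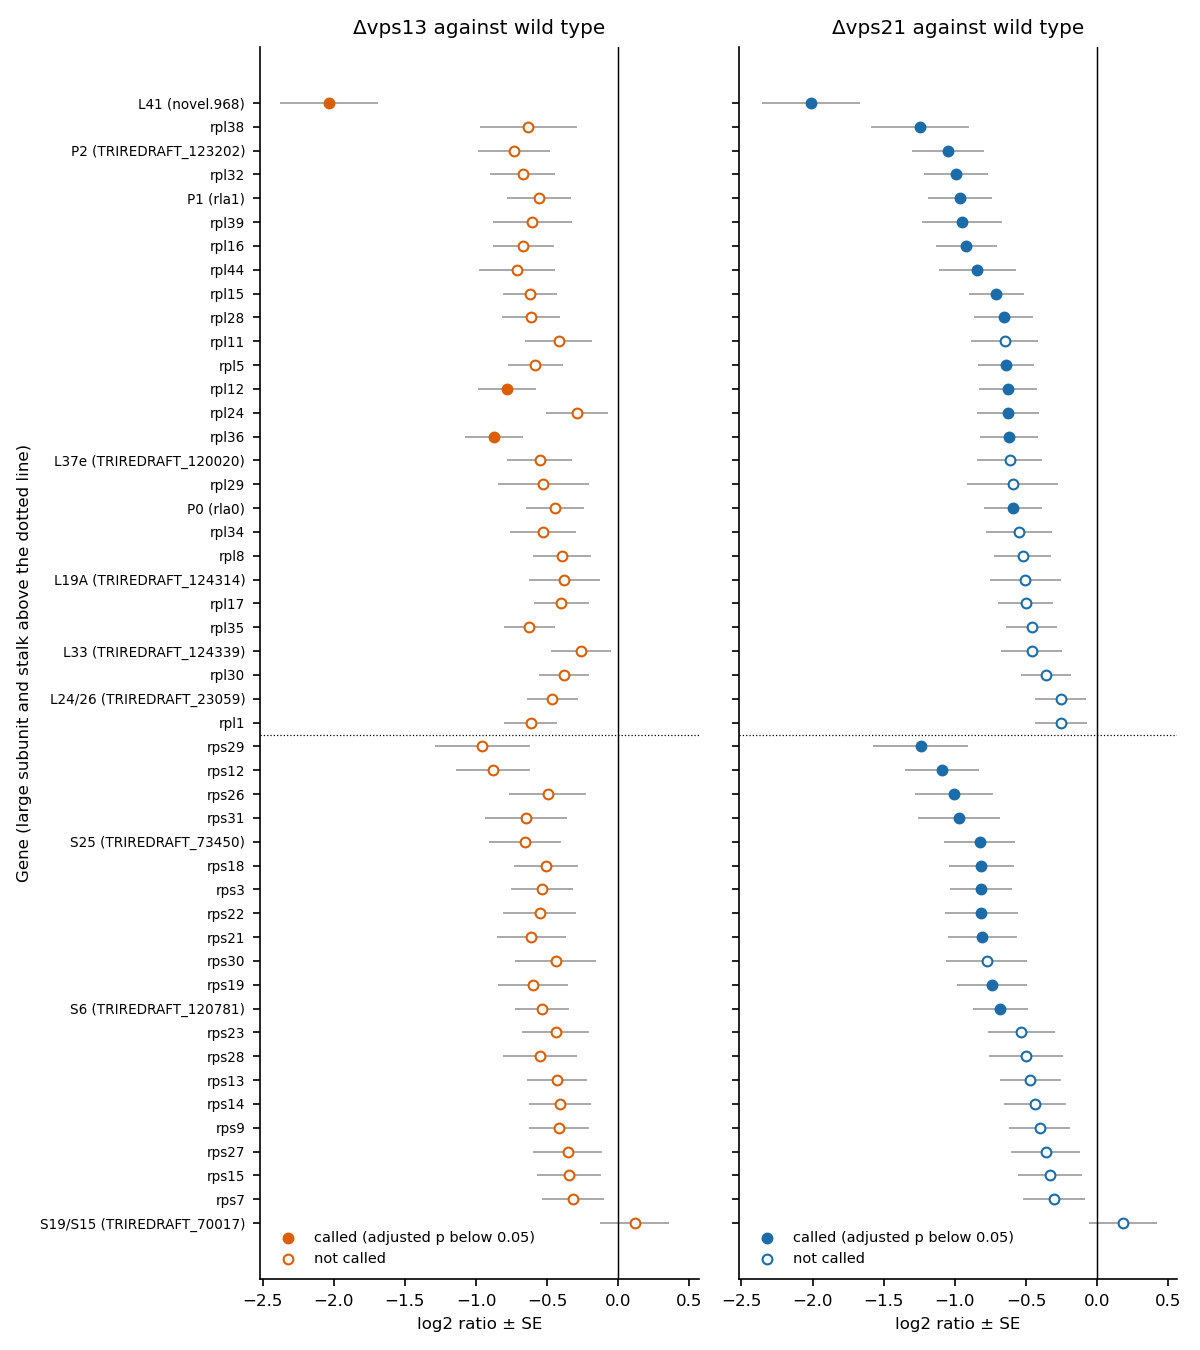
log2 ratio of the level of 48 of the 49 genes in Δvps13 (left) and Δvps21 (right) to the wild type, with bars of 1 SE, filled where the adjusted p is below 0.05. Nearly all points lie below 0, 3 are filled on the left and 26 on the right, and L41 lies near -2 in both.

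Both deletion strains are compared with the same 3 wild-type libraries, so agreement between the 2 comparisons is partly built in. The 3 genes called in Δvps13 were all among the 26 called in Δvps21. Of the 36 genes called in Δvps13 without replicate 3, 24 were also called in Δvps21 in the fit of all 9 libraries. This is 66.7% of the former and 92.3% of the latter list. The fit without replicate 3 called 73.5% of the 49 genes in Δvps13, so much of this overlap follows from the number called. It also left out the Δvps13 library whose summed level stood nearest the wild type.

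The stalk proteins were among the lower genes in Δvps21. P0 anchors the stalk to ribosomal RNA, and the acidic proteins P1 and P2 bind to it in pairs and contact the elongation factors. The level of TRIREDRAFT_123202, which encodes P2, was 829.9, 823 and 817 CPM in the wild type, 408, 409.5 and 668 CPM in Δvps13 and 355, 449 and 391 CPM in Δvps21. The wild-type libraries lay within 0.02 of one another on the log2 scale, and all 6 deletion libraries lay below them. P2 was 2.07-fold lower in Δvps21 (log2 -1.05 ± 0.25, adjusted p = 0.00952), while in Δvps13 the test was not passed (log2 -0.73 ± 0.25, adjusted p = 0.0849). The level of rla1, which encodes P1, was 458, 417 and 411 CPM in the wild type, 282, 224 and 367 CPM in Δvps13 and 233, 228 and 198 CPM in Δvps21. Its groups did not overlap either, and it fell in Δvps21 (log2 -0.96 ± 0.23, adjusted p = 0.00846) but did not pass in Δvps13 (log2 -0.56 ± 0.23, adjusted p = 0.131). The level of rla0, which encodes P0, was 582, 671 and 629 CPM in the wild type, 488, 405 and 493 CPM in Δvps13 and 400.3, 428 and 420.2 CPM in Δvps21. The difference was smaller, with a log2 of -0.59 ± 0.20, adjusted p = 0.0458 in Δvps21 and -0.44 ± 0.20, adjusted p = 0.177 in Δvps13, and the P0 call in Δvps21 was kept in 3 of 9 fits with 1 library left out. Several other Δvps21 calls were kept as rarely (above). Without Δvps13 replicate 3, P2 (log2 -0.99 ± 0.23, adjusted p = 0.00542) and P1 (log2 -0.75 ± 0.22, adjusted p = 0.0171) were called lower in Δvps13 and P0 was not (log2 -0.47 ± 0.22, adjusted p = 0.110).

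Among the other large-subunit genes, rpl38 had the lowest log2 in Δvps21, and rpl16 and rpl32 were called there in all fits with 1 library left out. The level of rpl16 was 950.0, 877 and 771 CPM in the wild type, 507, 511 and 619 CPM in Δvps13 and 442, 464 and 467 CPM in Δvps21. The groups did not overlap, and the fall was 1.89-fold in Δvps21 (log2 -0.92 ± 0.21, adjusted p = 0.00798), with a log2 of -0.67 ± 0.21, adjusted p = 0.0691 in Δvps13. The level of rpl32 was 438, 343 and 313 CPM in the wild type, 221, 183 and 283 CPM in Δvps13 and 189, 181 and 180.0 CPM in Δvps21, again without overlap. It fell 1.99-fold in Δvps21 (log2 -0.99 ± 0.23, adjusted p = 0.00744), and the value in Δvps13 was log2 -0.67 ± 0.23, adjusted p = 0.0799. The level of rpl38 was 543, 439.9 and 419 CPM in the wild type, 184, 223 and 498 CPM in Δvps13 and 178, 226 and 188 CPM in Δvps21. It fell 2.37-fold in Δvps21 (log2 -1.24 ± 0.34, adjusted p = 0.0181). In Δvps13, replicate 3 lay inside the wild-type range and replicates 1 and 2 beside Δvps21, a range of 1.44 on the log2 scale that is the widest of all 49 genes within a group, and the test was not passed (log2 -0.63 ± 0.34, adjusted p = 0.242). With replicate 3 left out, all 3 genes were called lower in Δvps13, rpl16 with log2 -0.75 ± 0.23, adjusted p = 0.0224, rpl32 with log2 -0.84 ± 0.22, adjusted p = 0.0108 and rpl38 with log2 -1.18 ± 0.23, adjusted p = 0.00204.

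rpl39 and rpl44 showed the same arrangement of libraries. L39 lines the tunnel through which the new peptide leaves the ribosome. The level of rpl39 was 589, 486 and 429 CPM in the wild type, 253, 256 and 479 CPM in Δvps13 and 239, 282 and 257 CPM in Δvps21, and it fell in Δvps21 (log2 -0.95 ± 0.28, adjusted p = 0.0237; -0.60 ± 0.28, adjusted p = 0.177 in Δvps13). The level of rpl44 was 409.7, 281 and 233 CPM in the wild type, 187, 139 and 239 CPM in Δvps13 and 167, 194 and 154 CPM in Δvps21, and it fell in Δvps21 (log2 -0.84 ± 0.27, adjusted p = 0.0339; -0.71 ± 0.27, adjusted p = 0.112 in Δvps13). For both genes Δvps13 replicate 3 overlapped the wild type and replicates 1 and 2 did not. Both were called lower in Δvps13 without replicate 3, rpl39 with log2 -0.96 ± 0.23, adjusted p = 0.00606 and rpl44 with log2 -0.90 ± 0.26, adjusted p = 0.0168. The description of rpl44 names the small subunit, but its L number places it in the large one, where it is counted here.

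The remaining called genes of the large subunit were rpl15, rpl28, rpl5 and rpl24. L5 carries the 5S ribosomal RNA into the subunit, and L24 makes a bridge to the small subunit. The level of rpl5 was 479.7, 468 and 461 CPM in the wild type, 272, 329 and 339 CPM in Δvps13 and 292, 305 and 306 CPM in Δvps21 (log2 -0.64 ± 0.19, adjusted p = 0.0268 in Δvps21; -0.58 ± 0.19, adjusted p = 0.0780 in Δvps13). The level of rpl15 was 518, 499 and 509 CPM in the wild type, 325, 312 and 357 CPM in Δvps13 and 307, 298 and 328 CPM in Δvps21 (log2 -0.71 ± 0.19, adjusted p = 0.0162 in Δvps21; -0.62 ± 0.19, adjusted p = 0.0608 in Δvps13). For both of these genes all 6 deletion libraries lay below the wild type by a similar margin. The level of rpl28 was 455, 359 and 358 CPM in the wild type, 233, 233 and 301 CPM in Δvps13 and 251, 243 and 249.7 CPM in Δvps21, with no overlap (log2 -0.66 ± 0.21, adjusted p = 0.0316 in Δvps21; -0.61 ± 0.21, adjusted p = 0.0811 in Δvps13). The level of rpl24 was 317, 299 and 311 CPM in the wild type, 229, 202 and 326 CPM in Δvps13 and 208, 200.1 and 192 CPM in Δvps21, and here Δvps13 replicate 3 exceeded every wild-type library (log2 -0.63 ± 0.22, adjusted p = 0.0466 in Δvps21; -0.29 ± 0.22, adjusted p = 0.395 in Δvps13). Once replicate 3 was left out, rpl5 (log2 -0.63 ± 0.21, adjusted p = 0.0342), rpl15 (log2 -0.66 ± 0.21, adjusted p = 0.0262) and rpl28 (log2 -0.73 ± 0.21, adjusted p = 0.0170) were called lower in Δvps13 and rpl24 was not (log2 -0.50 ± 0.20, adjusted p = 0.0601).

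rps31 encodes a fusion of ubiquitin to protein S31 of the small-subunit beak, so it supplies ubiquitin as well as ribosomes. Its level was 990.1, 989 and 909 CPM in the wild type, 449, 491 and 902 CPM in Δvps13 and 435, 537 and 499 CPM in Δvps21. Δvps13 replicate 3 lay just under the lowest wild-type library, while replicates 1 and 2 were near Δvps21. The gene fell 1.96-fold in Δvps21 (log2 -0.97 ± 0.29, adjusted p = 0.0241) and did not pass in Δvps13 (log2 -0.65 ± 0.29, adjusted p = 0.161). Next to it on the same scaffold, 646 bp away and in the opposite direction, lies rps26. Its level was 551, 757 and 705 CPM in the wild type, 357, 403 and 665 CPM in Δvps13 and 326, 361 and 315 CPM in Δvps21. rps26 fell 2.01-fold in Δvps21 (log2 -1.01 ± 0.27, adjusted p = 0.0164), and in Δvps13 it did not pass (log2 -0.50 ± 0.27, adjusted p = 0.246), with replicate 3 again inside the wild-type range. Both genes were called lower in Δvps13 without that library, rps31 with log2 -1.02 ± 0.24, adjusted p = 0.00543 and rps26 with log2 -0.80 ± 0.24, adjusted p = 0.0184.

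The small-subunit genes rps12 and rps22 are neighbours that face away from each other and lie 260 bp apart. The level of rps12, whose product lies in the beak, was 496, 402 and 343 CPM in the wild type, 192, 172 and 309.7 CPM in Δvps13 and 193, 213 and 177 CPM in Δvps21, and it was 2.13-fold lower in Δvps21 (log2 -1.09 ± 0.26, adjusted p = 0.00946; -0.88 ± 0.26, adjusted p = 0.0551 in Δvps13). The level of rps22 was 655, 667 and 759 CPM in the wild type, 361, 417 and 641 CPM in Δvps13 and 341, 404 and 438 CPM in Δvps21 (log2 -0.81 ± 0.26, adjusted p = 0.0321 in Δvps21; -0.55 ± 0.26, adjusted p = 0.181 in Δvps13). Neither gene overlapped the wild type in either strain. The level of TRIREDRAFT_73450, which encodes S25, was 671, 539 and 427 CPM in the wild type, 314, 278 and 445 CPM in Δvps13 and 299.7, 325 and 299 CPM in Δvps21, and it fell in Δvps21 (log2 -0.83 ± 0.25, adjusted p = 0.0278; -0.66 ± 0.25, adjusted p = 0.115 in Δvps13). Its highest Δvps13 library, replicate 3, lay above the lowest wild-type library. In the fit without replicate 3, rps12 (log2 -1.17 ± 0.23, adjusted p = 0.00216), rps22 (log2 -0.82 ± 0.23, adjusted p = 0.0158) and TRIREDRAFT_73450 (log2 -0.87 ± 0.24, adjusted p = 0.0147) were called lower in Δvps13.

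rps29 had the lowest log2 of the small subunit in Δvps21, and the second widest range within Δvps13. Its level was 372, 256 and 190.4 CPM in the wild type, 115, 94.4 and 213 CPM in Δvps13 and 99.5, 135 and 112 CPM in Δvps21. It fell 2.36-fold in Δvps21 (log2 -1.24 ± 0.33, adjusted p = 0.0160), and in Δvps13 replicate 3 lay inside the wild-type range (log2 -0.95 ± 0.33, adjusted p = 0.0887). Its wild-type libraries had the widest range of the 49 genes. S18 of the head contacts the large subunit, and the level of rps18 was 699, 663 and 690.2 CPM in the wild type, 403, 443 and 597 CPM in Δvps13 and 396, 427 and 342 CPM in Δvps21 (log2 -0.82 ± 0.23, adjusted p = 0.0189 in Δvps21; -0.51 ± 0.23, adjusted p = 0.166 in Δvps13). S3 guards the channel by which messenger RNA enters, and the level of rps3 was 459, 498 and 476 CPM in the wild type, 283, 290.1 and 415 CPM in Δvps13 and 277, 286 and 252 CPM in Δvps21 (log2 -0.82 ± 0.22, adjusted p = 0.0156 in Δvps21; -0.54 ± 0.22, adjusted p = 0.133 in Δvps13). rps18 and rps3 fell in Δvps21 without overlap with the wild type. In Δvps13, rps29 (log2 -1.36 ± 0.27, adjusted p = 0.00250), rps18 (log2 -0.68 ± 0.23, adjusted p = 0.0321) and rps3 (log2 -0.72 ± 0.21, adjusted p = 0.0170) were called lower when replicate 3 was left out.

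S6 is phosphorylated downstream of the TOR kinase in many organisms and serves as a readout of growth signalling. The level of its gene, TRIREDRAFT_120781, was 448, 479 and 505 CPM in the wild type, 321, 310.3 and 357 CPM in Δvps13 and 305, 298 and 290.0 CPM in Δvps21. No library of a deletion strain reached the wild type, and the gene fell in Δvps21 (log2 -0.68 ± 0.19, adjusted p = 0.0195) but did not pass in Δvps13 (log2 -0.54 ± 0.19, adjusted p = 0.0952). rps19 and rps21 were the remaining called genes of the small subunit. The level of rps19 was 431, 452 and 504 CPM in the wild type, 219, 297 and 401 CPM in Δvps13 and 266, 307 and 259 CPM in Δvps21 (log2 -0.74 ± 0.25, adjusted p = 0.0395 in Δvps21; -0.60 ± 0.24, adjusted p = 0.136 in Δvps13). The level of rps21 was 378, 474 and 521 CPM in the wild type, 247, 259 and 393 CPM in Δvps13 and 242, 277 and 264 CPM in Δvps21 (log2 -0.81 ± 0.24, adjusted p = 0.0254 in Δvps21; -0.61 ± 0.24, adjusted p = 0.124 in Δvps13). rps21 overlapped the wild type through Δvps13 replicate 3, whereas rps19 did not. In the fit without that library the genes for S6 (log2 -0.58 ± 0.21, adjusted p = 0.0439), S19 (log2 -0.82 ± 0.23, adjusted p = 0.0136) and S21 (log2 -0.84 ± 0.22, adjusted p = 0.0114) were called lower in Δvps13.

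The 23 genes that did not pass in Δvps21 had log2 values from -0.78 (rps30) to 0.18 (TRIREDRAFT_70017). rps30, the most abundant of the 49 genes per length, had a level of 773, 579 and 534 CPM in the wild type, 396, 366 and 627 CPM in Δvps13 and 352, 451 and 298 CPM in Δvps21 (log2 -0.78 ± 0.28, adjusted p = 0.0557 in Δvps21; -0.44 ± 0.28, adjusted p = 0.322 in Δvps13). All Δvps21 libraries lay below the wild type, and its adjusted p stood just above the threshold. The level of rps28 was 376, 321 and 335 CPM in the wild type, 171, 202 and 333 CPM in Δvps13 and 209.5, 259.8 and 260.1 CPM in Δvps21 (log2 -0.50 ± 0.26, adjusted p = 0.163 in Δvps21; -0.55 ± 0.26, adjusted p = 0.189 in Δvps13). The level of rpl29 was 326, 197 and 178 CPM in the wild type, 130.2, 115 and 241 CPM in Δvps13 and 138, 181 and 146 CPM in Δvps21 (log2 -0.60 ± 0.32, adjusted p = 0.176 in Δvps21; -0.53 ± 0.32, adjusted p = 0.296 in Δvps13), and its wild-type replicate 1 stood well above the other libraries of the group. The level of rps14 was 219, 225 and 199.8 CPM in the wild type, 209, 148 and 127 CPM in Δvps13 and 176, 151 and 148 CPM in Δvps21 (log2 -0.44 ± 0.22, adjusted p = 0.148 in Δvps21; -0.41 ± 0.22, adjusted p = 0.240 in Δvps13). Here replicate 1, not replicate 3, was the Δvps13 library that overlapped the wild type. Without replicate 3, rps30 (log2 -0.71 ± 0.26, adjusted p = 0.0489), rps28 (log2 -0.87 ± 0.21, adjusted p = 0.00772) and rpl29 (log2 -0.91 ± 0.26, adjusted p = 0.0167) were called lower in Δvps13 and rps14 was not (log2 -0.25 ± 0.21, adjusted p = 0.377).

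Among the large-subunit genes that passed in neither strain, rpl35 came nearest to the threshold in Δvps13 and rpl11 in Δvps21, and both are named for that reason after their values were seen. The level of rpl35 was 289, 289.8 and 287 CPM in the wild type, 175, 184 and 203 CPM in Δvps13 and 208, 226 and 195 CPM in Δvps21, with no overlap and very close wild-type libraries (log2 -0.62 ± 0.18, adjusted p = 0.0510 in Δvps13; -0.46 ± 0.18, adjusted p = 0.0720 in Δvps21). L11 binds the 5S ribosomal RNA together with L5, and the level of rpl11 was 439, 536 and 518 CPM in the wild type, 291, 352 and 473 CPM in Δvps13 and 289, 327 and 334 CPM in Δvps21 (log2 -0.42 ± 0.23, adjusted p = 0.256 in Δvps13; -0.65 ± 0.23, adjusted p = 0.0525 in Δvps21). Δvps13 replicate 3 lay inside the wild-type range of rpl11, and without it both rpl35 (log2 -0.67 ± 0.19, adjusted p = 0.0175) and rpl11 (log2 -0.61 ± 0.22, adjusted p = 0.0462) were called lower in Δvps13. The 12 large-subunit genes that did not pass in Δvps21 had log2 values of -0.65 to -0.26 there, and the 11 of the small subunit -0.78 to 0.18.

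TRIREDRAFT_70017 was the single gene with a log2 above 0, and it is one of the 2 low genes without a stated compartment. Its level was 32.4, 25.1 and 24.3 CPM in the wild type, 25.1, 23.0 and 40.7 CPM in Δvps13 and 31.5, 31.6 and 29.8 CPM in Δvps21 (log2 0.11 ± 0.24, adjusted p = 0.784 in Δvps13 and 0.18 ± 0.24, adjusted p = 0.591 in Δvps21). Both groups overlapped the wild type, and the sign turned negative in both strains when libraries were scaled by totals alone. The level of TRIREDRAFT_124339 was 20.5, 19.1 and 24.3 CPM in the wild type, 20.3, 17.9 and 15.0 CPM in Δvps13 and 16.6, 13.2 and 16.6 CPM in Δvps21, and it passed in neither strain (log2 -0.26 ± 0.21, adjusted p = 0.441 in Δvps13 and -0.46 ± 0.21, adjusted p = 0.122 in Δvps21). The 2 genes that share a number with TRIREDRAFT_70017, rps19 and rps15, stood far above it per length. The level of rps15 was 447, 488 and 493 CPM in the wild type, 302, 341 and 479 CPM in Δvps13 and 367, 371 and 398 CPM in Δvps21, with a log2 of -0.35 ± 0.23, adjusted p = 0.328 in Δvps13 and -0.33 ± 0.23, adjusted p = 0.287 in Δvps21. None of these 3 was called in Δvps13 without replicate 3, where TRIREDRAFT_70017 had log2 -0.17 ± 0.20, adjusted p = 0.532, TRIREDRAFT_124339 log2 -0.14 ± 0.21, adjusted p = 0.630 and rps15 log2 -0.55 ± 0.21, adjusted p = 0.0586.

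Between the deletion strains, none of the 49 genes was called by edgeR's quasi-likelihood test, where 7.55% of all tested genes were called lower in Δvps21 than in Δvps13 and 7.68% higher. None had an unadjusted p under 0.05 by edgeR, DESeq2 called none with 1 at an unadjusted p under 0.05 (9.77% of all genes lower and 9.4% higher), and limma on log2(FPKM + 1) called none (6.44% lower and 8.36% higher). The median log2 was -0.12. The lowest values were those of rpl38 (log2 -0.61 ± 0.34, adjusted p = 0.255), rps26 (log2 -0.51 ± 0.27, adjusted p = 0.233) and rla1 (log2 -0.41 ± 0.23, adjusted p = 0.255). The highest were those of rpl1 (log2 0.36 ± 0.19, adjusted p = 0.218), rpl36 (log2 0.25 ± 0.20, adjusted p = 0.438) and TRIREDRAFT_23059, described as L24/26 (log2 0.21 ± 0.18, adjusted p = 0.477). The groups did not overlap for rpl16 and TRIREDRAFT_120781 (lower in Δvps21) or for rpl1 (higher in Δvps21), where 14.8% and 16.2% of all tested genes were lower and higher without overlap.

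L1 forms the mobile arm of the large subunit that releases spent transfer RNA. The level of rpl1 was 319.7, 367 and 364 CPM in the wild type, 240.4, 224 and 220.5 CPM in Δvps13 and 280.4, 303 and 296 CPM in Δvps21, and Δvps13 replicate 3 was the lowest of the 9 libraries. Its log2 against the wild type was -0.62 ± 0.19, adjusted p = 0.0576 in Δvps13 and -0.26 ± 0.18, adjusted p = 0.315 in Δvps21. The level of TRIREDRAFT_23059 was 205, 224 and 200.4 CPM in the wild type, 140.1, 146 and 170.4 CPM in Δvps13 and 168, 173 and 187 CPM in Δvps21 (log2 -0.46 ± 0.18, adjusted p = 0.119 in Δvps13 and -0.26 ± 0.18, adjusted p = 0.301 in Δvps21). Both were called lower in Δvps13 without replicate 3, rpl1 with log2 -0.57 ± 0.20, adjusted p = 0.0425 and TRIREDRAFT_23059 with log2 -0.54 ± 0.19, adjusted p = 0.0389. With weights that lower the influence of variable libraries (a voom fit), rpl1 and rpl36 were called higher in Δvps21 than in Δvps13 (adjusted p = 0.0467 and 0.0146), where 17.4% of all genes were called higher. The weights of Δvps13 replicates 1 to 3 were 0.187, 2.73 and 0.171, so these 2 calls rest mostly on replicate 2 of that group.

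As a share of the ribosomal protein counts, which no scaling factor touches, the genes moved apart in different ways. rps31 took 4.11, 4.40 and 4.23% of them for the wild type, 3.47, 3.73 and 4.77% for Δvps13 and 3.35, 3.77 and 3.71% for Δvps21. rpl38 took 2.25, 1.96 and 1.95% for the wild type, 1.42, 1.69 and 2.64% for Δvps13 and 1.37, 1.58 and 1.40% for Δvps21. rpl1 took 1.33, 1.63 and 1.69% for the wild type, 1.86, 1.71 and 1.17% for Δvps13 and 2.16, 2.13 and 2.21% for Δvps21. The share of rpl38 was thus lower in all Δvps21 libraries than in any wild-type library, and that of rpl1 was higher. In Δvps13, replicates 1 and 2 lay on the same side as Δvps21 for both genes and replicate 3 on the other side of the wild type. Shares outside the wild-type range were common in Δvps21. Of 27 large-subunit genes, 7 lay below and 8 above every wild-type library in all Δvps21 libraries. Of 22 small-subunit genes, 2 lay below and 10 above. In Δvps13 the counts below and above were 2 and 1 for the large subunit and 0 and 6 for the small. Because the shares sum to a fixed whole, the fall of L41 by itself raises those of other genes.

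**Figure D5:**
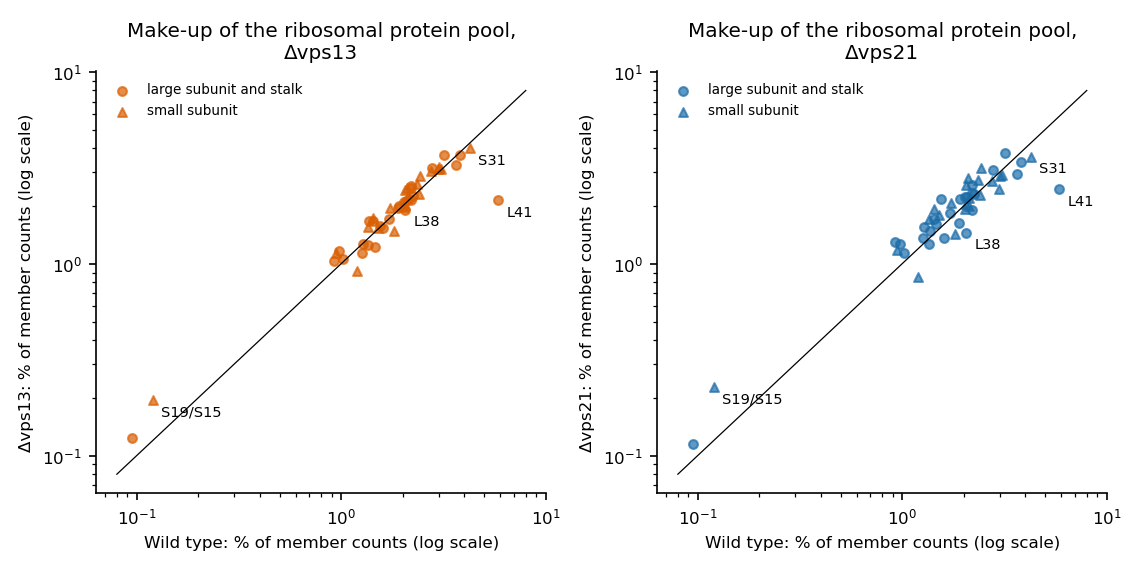
Mean share of each gene in the ribosomal protein counts (%, log axes) in Δvps13 (left) and Δvps21 (right) against the wild type, with circles for the large subunit and stalk, triangles for the small, and a line of equality. L41 lies farthest below the line in both panels, at 2.14% and 2.45% against 5.88%.

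Gene length moved with the libraries. Each library was set against the mean of the other libraries of its group, itself left out. The median of the 7 ribosomal protein genes under 400 bp then stood at a log2 of 0.39 in wild-type replicate 1 and 0.81 in Δvps13 replicate 3. The 14 genes of 800 bp or more stood at -0.02 and 0.31 in the same libraries. Over 33 other genes under 400 bp with 100 CPM or more, the values were 0.06 and 0.70. Per the labels, cDNA fragments of 370 to 420 bp were preferred when libraries were made, and 6 of the 49 genes are shorter than that. In Δvps21 the median log2 against the wild type was -0.60, -0.68 and -0.56 for genes under 400 bp, from there to under 800 bp, and of 800 bp or more, and in Δvps13 it was -0.53, -0.58 and -0.44. The part of length in the position of Δvps13 replicate 3 was not tested.

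The median range of a ribosomal protein gene between the 3 libraries of a group was 0.23 on the log2 scale for the wild type, 0.66 for Δvps13 and 0.20 for Δvps21. Over the 1324 other genes of 100 CPM or more, which are closer in level to this set than all tested genes are, it was 0.29, 0.96 and 0.34.

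Other genes of translation were taken by words in their descriptions. The initiation factors so taken include a translation initiation factor kinase (TRIREDRAFT_60051) and a mitochondrial initiation factor (TRIREDRAFT_60850), both with a log2 above 0 in both strains. Of 22 such genes (initiation, elongation and release factors, tRNA synthetases, an RNA polymerase III subunit and mitochondrial ribosomal proteins), 1 fell and none rose in Δvps13, where 4.75% of all tested genes fell and 5.65% rose, and the median log2 was 0.14 against 0.04. In Δvps21, 1 fell and 4 rose, where 15.8% and 16.7% of all tested genes did, and the median log2 was 0.19 against -0.02. The median of the whole set thus lay on the other side of 0 from that of the ribosomal proteins, and this difference was not tested. The 4 elongation factors lay on the same side as the ribosomal proteins, with median log2 values of -0.57 in Δvps13 and -0.24 in Δvps21. In both strains the medians were above 0 for initiation factors, release factors, tRNA synthetases and the RNA polymerase III subunit. The most abundant of the 4 initiation factors, factor 5A (TRIREDRAFT_71559), lay below the wild type in all Δvps13 libraries (log2 -0.50 ± 0.22, not called). In Δvps21 it overlapped the wild type (log2 0.04 ± 0.22). For mitochondrial ribosomal proteins they were -0.01 and -0.17. No description matched ribosome biogenesis.

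Elongation factor 1 beta (TRIREDRAFT_82613), which reloads the factor that brings transfer RNA to the ribosome, fell in Δvps13. Its level was 402, 420.2 and 354 CPM in the wild type, 206, 195 and 194 CPM in Δvps13 and 275, 261 and 301 CPM in Δvps21 (log2 -0.98 ± 0.19, adjusted p = 0.0113 in Δvps13 and -0.49 ± 0.19, adjusted p = 0.0673 in Δvps21). Replicate 3 lay with its group-mates here. The level of tef1a, which encodes the factor that carries transfer RNA, was 3866, 4305 and 3835 CPM for the wild type, 2483, 2990.0 and 2886 CPM for Δvps13 and 3530, 3598 and 4256 CPM for Δvps21, and it passed in neither strain (adjusted p = 0.214 and 0.847). Its Δvps13 libraries all lay below the wild type. The level of tef2, described as elongation factor 2, was 1133, 1550 and 1212 CPM for the wild type, 702, 921 and 909 CPM for Δvps13 and 959, 995 and 1006 CPM for Δvps21. Neither deletion group of tef2 overlapped the wild type, but it passed in neither strain (log2 -0.62 ± 0.24, adjusted p = 0.118 in Δvps13 and -0.40 ± 0.24, adjusted p = 0.229 in Δvps21). Translation initiation factor 6 (TRIREDRAFT_74252), which keeps free large subunits apart from small ones, rose in Δvps21 from 33.4, 27.8 and 30.2 CPM to 65.5, 54.7 and 61.8 CPM (log2 0.99 ± 0.17, adjusted p = 0.00174), and it stood at 38.6, 39.6 and 43.7 CPM in Δvps13 (adjusted p = 0.142). An elongation factor 3-like gene (TRIREDRAFT_71363) also rose in Δvps21 (log2 1.06 ± 0.29, adjusted p = 0.0184), as did a tyrosyl-tRNA synthetase (TRIREDRAFT_82334, log2 0.85 ± 0.20, adjusted p = 0.00795) and the RNA polymerase III subunit (TRIREDRAFT_63038, log2 0.69 ± 0.20, adjusted p = 0.0242). The gene that fell was TRIREDRAFT_122275, related to phenylalanyl-tRNA synthetase (log2 -0.87 ± 0.22, adjusted p = 0.0113).

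Of 2 further genes of the ribosome whose descriptions lie outside the selection, cpc2 was called in both strains. It encodes a WD-repeat protein of the RACK1 type, which in yeast sits on the small subunit. Its level was 447, 470.3 and 395 CPM in the wild type, 249, 242 and 244 CPM in Δvps13 and 259, 254 and 259.6 CPM in Δvps21 (log2 -0.84 ± 0.19, adjusted p = 0.0194 in Δvps13 and -0.76 ± 0.19, adjusted p = 0.0102 in Δvps21). All 6 deletion libraries lay together and below the wild type, replicate 3 of Δvps13 included. The level of rpl40, the ubiquitin fusion of the large subunit, was 393, 331 and 379 CPM for the wild type, 229.9, 259 and 377 CPM for Δvps13 and 236, 267 and 217 CPM for Δvps21. It lay below the wild type in all Δvps21 libraries but did not pass (log2 -0.61 ± 0.23, adjusted p = 0.0638; -0.35 ± 0.23, adjusted p = 0.344 in Δvps13).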

How the data were processed

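Each of 9 poly-A libraries gave whole-number counts per gene for 10348 genes, as deposited by the authors. Per the submitters' processing notes, HISAT2 2.0.5 and featureCounts 1.5.0-p3 were used. As to genome build or annotation, neither is given in the sources used here. The FPKM deposited by the authors are these counts divided by gene length and by 1 factor per library, so they are not independent of the counts, and they served for ranking by length-corrected level and for an alternative fit. Of the 49 genes, 48 were found in a RefSeq gene table (assembly QM6a v2.0), and coordinates follow the deposited table.

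Genes passing edgeR filterByExpr (minimum count 10) numbered 8906, all 49 included. Counts were scaled by TMM and fitted with edgeR's quasi-likelihood test over all 9 libraries, 1 mean per group, 6 residual degrees of freedom, and a gene was called at a Benjamini-Hochberg adjusted p of 0.05 over all 8906 genes. The strains were compared in all 3 pairs. The tools were DESeq2 1.42.0, limma 3.58.1 and edgeR 4.0.16 in R 4.3.3, and the fit was tested on simulated counts. Totals of 12127372 to 13493219 counts make counting error small beside the spread between replicates.

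The genes and lists were chosen with earlier results of these data known. Values in every library are given for genes called in any comparison, the 3 highest and 3 lowest log2 per comparison, the 5 highest and 3 lowest by FPKM, the 5 with the widest range within a group, stalk proteins, ubiquitin fusions, L41, S6 and genes that share a protein number. rpl11 and rpl35 were added after their values were seen. 1 of the 49 genes stays in all counts and medians but is not reported singly here. Alternatives were DESeq2, limma on log2(FPKM + 1) or log2(FPKM + 0.1), median-ratio factors, library totals, TMM without the 49 genes, an absolute log2 of 1 or more, no filter, a filter of 10 CPM in 3 libraries, 2 groups alone, a replicate block and each library left out. After the data were seen, a voom fit (limma) that weights each sample by its quality was added. No sequence is shown.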

Additional observations from a re-analysis of the deposited data

How the results depend on the processing

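The number of ribosomal protein genes called lower in Δvps13 depended on the fit. Against 3 genes (4.75% of all genes) it was 15 with DESeq2 (7.02%), 40 with library totals (12.2%), 9 with a filter of 10 CPM in 3 libraries (5.52%), 46 with voom and sample weights (23.8%), 1 with the 2 groups alone (1.65%), 1 at an absolute log2 of 1 or more (3.9%), and 1 to 36 with 1 library left out. For Δvps21, against 26 genes (15.8%), it was 43 with the 2 groups alone (26.9%), 44 with voom (31.1%), 6 at an absolute log2 of 1 or more (11.6%), and 5 to 35 with 1 library left out. Between the deletion strains voom called 2 genes higher (17.4%). Its weights for Δvps13 replicates 1 to 3 were 0.187, 2.73 and 0.171, so its calls for Δvps13 rest mostly on replicate 2. None was called higher in a deletion strain than in the wild type under any of these alternatives, and no called gene changed direction. The cause was not tested, except that the log2 limit, the fit of 2 groups and the left-out libraries change the rule or the samples by construction. With a replicate block 2, 23 and 0 genes were called lower in Δvps13, Δvps21 and between them, with 4.38, 15.8 and 6.59% of all genes. Same-numbered libraries correlated from -0.10 to 0.47 in their deviations from the group means, and differently numbered ones from -0.43 to 0.42. With so few libraries a group, these values cannot show whether equal numbers mark paired samples. TRIREDRAFT_70017 turned from 0.11 in Δvps13 to -0.25 with library totals, -0.12 with voom and -0.17 to 0.27 with 1 library left out (lowest without Δvps13 replicate 3), and from 0.18 in Δvps21 to -0.0034 with library totals. Counted over 11 genes whose descriptions name a numbered 40S or 60S protein or a stalk protein, the shares for the wild type, Δvps13 and Δvps21 in turn were 0.617, 0.585 and 0.559%, 0.391, 0.267 and 0.305%, and 0.334, 0.324 and 0.296%. Over all 49 genes, with the 50 most abundant other genes left out of the total, the shares were 4.25, 3.75 and 3.53%, 2.24, 1.80 and 2.41%, and 2.12, 2.21 and 1.97%. With 3 libraries a group, a gene that missed the threshold is not shown to be equal between strains.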
